A study of Homo sapiens with 6 samples.

Results

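The comparison set RNA from ME-180 cells labelled as p63 knockdown against RNA from SiHa cells carrying a vector, both with TP63 transcripts near the limit of counting. It used 2 of the 6 samples of the series. Transcripts were kept when they had a row in the count table of each cell line, which left 13206 of 18583 transcripts and 7587 of 10661 gene names. Of these genes, 6289 reached 1 CPM (1 count per 1000000 counts of the joined rows) in at least 1 of the 2 libraries. Where a gene had several joined transcripts, the one with the highest CPM summed over both libraries stood for it.

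ME-180 and SiHa are established human cervical carcinoma lines that carry papillomavirus DNA, ME-180 with a squamous phenotype. The study examined where p63 binds and how transcripts respond when p63 is lowered in ME-180 with a short hairpin RNA (control: the plko vector) or raised in SiHa (control: vector). All cells were at passage 13 to 15, grown with 10% fetal bovine serum, SiHa in DMEM and ME-180 in McCoy's 5A medium. There was 1 library per group, so no difference below has a replicate check and no p-value is given. The cell line, the medium, the hairpin and the experiment all differ between the libraries and cannot be told apart. The values are written as the level in the library labelled knockdown relative to the SiHa vector library.

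The targeted gene was low on both sides. The delta N alpha transcript of TP63, NM_001114980.1, had 6 counts in the library labelled knockdown and 7 in the SiHa vector library, a ratio of 0.841 (95% interval 0.234 to 2.92, counting error only). The same transcript had 5619 counts in the ME-180 control and 179 in the SiHa p63 overexpression library. Squamous markers were summed in each library. TP63 is among these 8 markers and p63 drives KRT5 and KRT14, so a low sum cannot check the labelled cell type. The 5 of 8 with a row (KRT5, KRT14, KRT17, TP63 and COL17A1) summed to 74499 CPM in the ME-180 control but to 37.7 CPM in the library labelled knockdown, against 6006 CPM in SiHa vector and 12956 CPM in SiHa overexpression. KRT5 alone made up 63178 CPM of the sum in the ME-180 control, and KRT17 alone 5975 CPM of the sum in SiHa vector. The library labelled knockdown therefore lacked most of the RNA of these 5 genes that the control of its own line held. Whether it holds ME-180 RNA was not tested.

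The joined rows held 10013525 counts for the library labelled knockdown and 9830403 for SiHa vector, 99.7% and 69.2% of their tables. The difference lies in abundant genes without a row in the ME-180 table, among them EEF1A1, with 315977 counts in SiHa vector. Absence of a row does not mean absence of RNA. There were 770 genes with at least 100 counts in SiHa vector and no joined transcript, and 38 such genes for the library labelled knockdown.

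Epithelial cells are held together by keratin filaments, desmosomes and tight junctions, and transcription factors such as ELF3, EHF and the GRHL family maintain this state. p63 drives the basal keratins KRT5 and KRT14 of stratified epithelium, whereas KRT8 and KRT18 form the filaments of simple epithelium. LIN28B and the IGF2BP proteins are RNA-binding proteins of fetal tissue that are often re-expressed in tumours, and SALL1 is a zinc finger factor of the developing kidney and other organs. KIF1A is a kinesin that carries synaptic vesicle precursors along axons.

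Among the gene lists, epithelial, inflammatory and detoxification genes leaned lower in the library labelled knockdown, and fetal, synaptic and neural adhesion genes leaned higher. In RNA from bulk cultures, fewer cells of a type and less RNA per cell cannot be told apart. Of the 6289 genes, 1196 (19%) were higher by 2-fold or more and 976 (15.5%) lower by as much, together 34.5%, on the scale of CPM plus a pseudocount of 1. The median log2 ratio of all 6289 genes was 0.17. Higher genes made up 55.1% of those past 2-fold, and 44.3% when the libraries were scaled by the median of ratios, which shifted the median log2 ratio of all genes by -0.19. The tails were uneven on this scale. At 4-fold, 316 genes were higher and 386 lower, at 16-fold 2 were higher and 130 lower, and at 64-fold 0 were higher and 36 lower. The pseudocount shrinks ratios where a library is near 0 counts. Plain ratios past 64-fold occurred on both sides, as for KCTD19 (98.7-fold higher) and ALPP (3441-fold lower). For scale, the 2 SiHa libraries, which differ by p63 overexpression, had 36 of the same 6289 genes past 2-fold upward and 83 past 2-fold downward with p63.

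**Figure D1:**
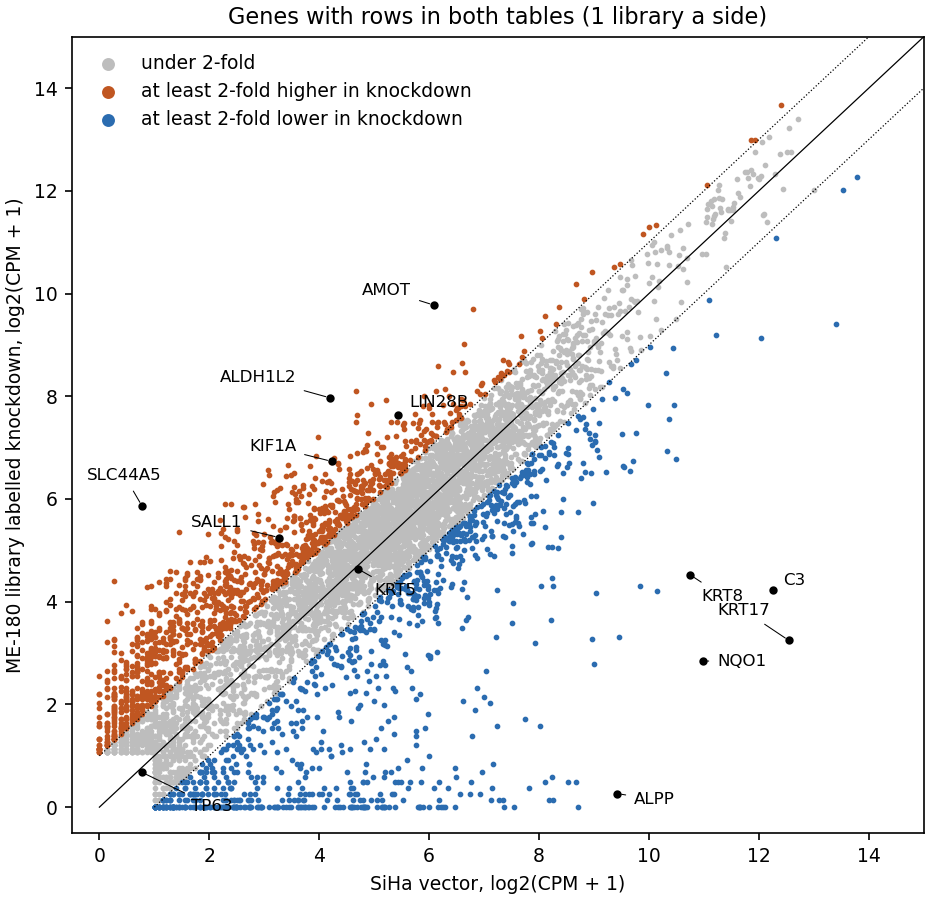
Level of each of the 6289 genes in the SiHa vector library (x axis) and the library labelled knockdown (y axis), both as log2(CPM + 1), 1 point per gene. TP63, at under 1 CPM on both axes, is added. Dotted lines mark 2-fold. The points below the diagonal reach far lower (KRT17, ALPP, C3) than the points above it reach up (SLC44A5, AMOT).

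KRT17 had the lowest log2 ratio of all 6289 genes on the scale of CPM plus 1, although several genes, such as ALPP and AKR1C3, had lower plain ratios. This keratin of basal and injured epithelium had 85 counts in the library labelled knockdown (8.49 CPM) and 58740 in SiHa vector (5975 CPM), 704-fold lower (95% interval 569 to 881). It had 35001 counts in the ME-180 control and 120878 in SiHa overexpression, so the library labelled knockdown was the low one of the 4. The KRT17 gene has close paralogs and pseudogene copies, so its reads may be shared.

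KRT8, the type II keratin of simple epithelium, had 220 counts in the library labelled knockdown and 16941 in SiHa vector, with 20597 in the ME-180 control and 29910 in SiHa overexpression. It was 78.4-fold lower than in SiHa vector (68.7 to 90.01), and its 2 joined transcripts gave log2 ratios of -6.23 and -6.03. Its partner KRT18 was at 109 CPM against 1441 CPM, 13.2-fold lower (12.4 to 14.04). All 4 of the 9 listed simple epithelial keratins that had a row were lower (median log2 ratio -3.59), the others being KRT80 at -3.47 and KRT86 at -2.15.

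The basal keratins KRT5 and KRT14 did not separate the libraries. KRT5 had 239 counts in the library labelled knockdown and 247 in SiHa vector, a ratio of 0.9499 (0.792 to 1.14), against 679522 in the ME-180 control and 730 in SiHa overexpression. KRT14, its partner, had 30 against 23 counts, a ratio of 1.28 (0.719 to 2.31), with 46445 in the ME-180 control. COL17A1, a collagen of the hemidesmosome, had 18 against 20 counts, a ratio of 0.884 (0.441 to 1.76). Both libraries were thus low for these genes, and the difference in KRT17 and KRT8 was not shared by them.

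Of the 11 measured genes (of 25) in the list of basal keratins and hemidesmosome genes, 7 were lower and 1 higher, with a median of -1.13. LAMB3, a laminin-332 chain, had 0 counts against 858, 291-fold lower with 0 set to 3 counts (lower 95% limit 236). COL7A1, the anchoring fibril collagen, was 30.8-fold lower (26.5 to 36.1), and PLEC, the linker plectin, had a log2 ratio of -3.18. LAMA3, another laminin-332 chain, was the gene that was higher, with 268 against 115 counts (log2 ratio 1.13). The subunits of laminin-332 therefore lay on opposite sides. ITGB4 and ITGA6, the integrin pair of the hemidesmosome, were at -1.11 and -1.13.

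Cell junction genes were divided. Of 14 genes at the 1 CPM floor (of 28 listed), 6 were higher and 5 lower, with a median of 0.67. PKP1, a desmosome plaque protein of stratified epithelium, had 1 count in the library labelled knockdown against 63 in SiHa vector, with 9585 in the ME-180 control, and TJP3, a tight junction scaffold, was at -2.78. Other members were higher. DSP, desmoplakin, the core desmosome linker, had 1553 against 637 counts, 2.39-fold higher (2.18 to 2.63). The tight junction protein gene OCLN had 344 against 84 counts (log2 ratio 1.89). GJA1, the widely used connexin 43, was at 2.21 and CGNL1, paracingulin, at 2.66. MARVELD3, of tight junctions, was lower (-1.14), and PKP4 (0.75), CLDN12 (0.59) and MARVELD2 (-0.38) did not pass 2-fold. The higher members had counts in both libraries. In the library labelled knockdown DSP (155 CPM) and GJA1 (181 CPM) were below their ME-180 control levels (1085 and 378 CPM). OCLN (34.4 CPM) and CGNL1 (12.4 CPM) were above theirs (22.8 and 6.60 CPM).

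**Figure D2:**
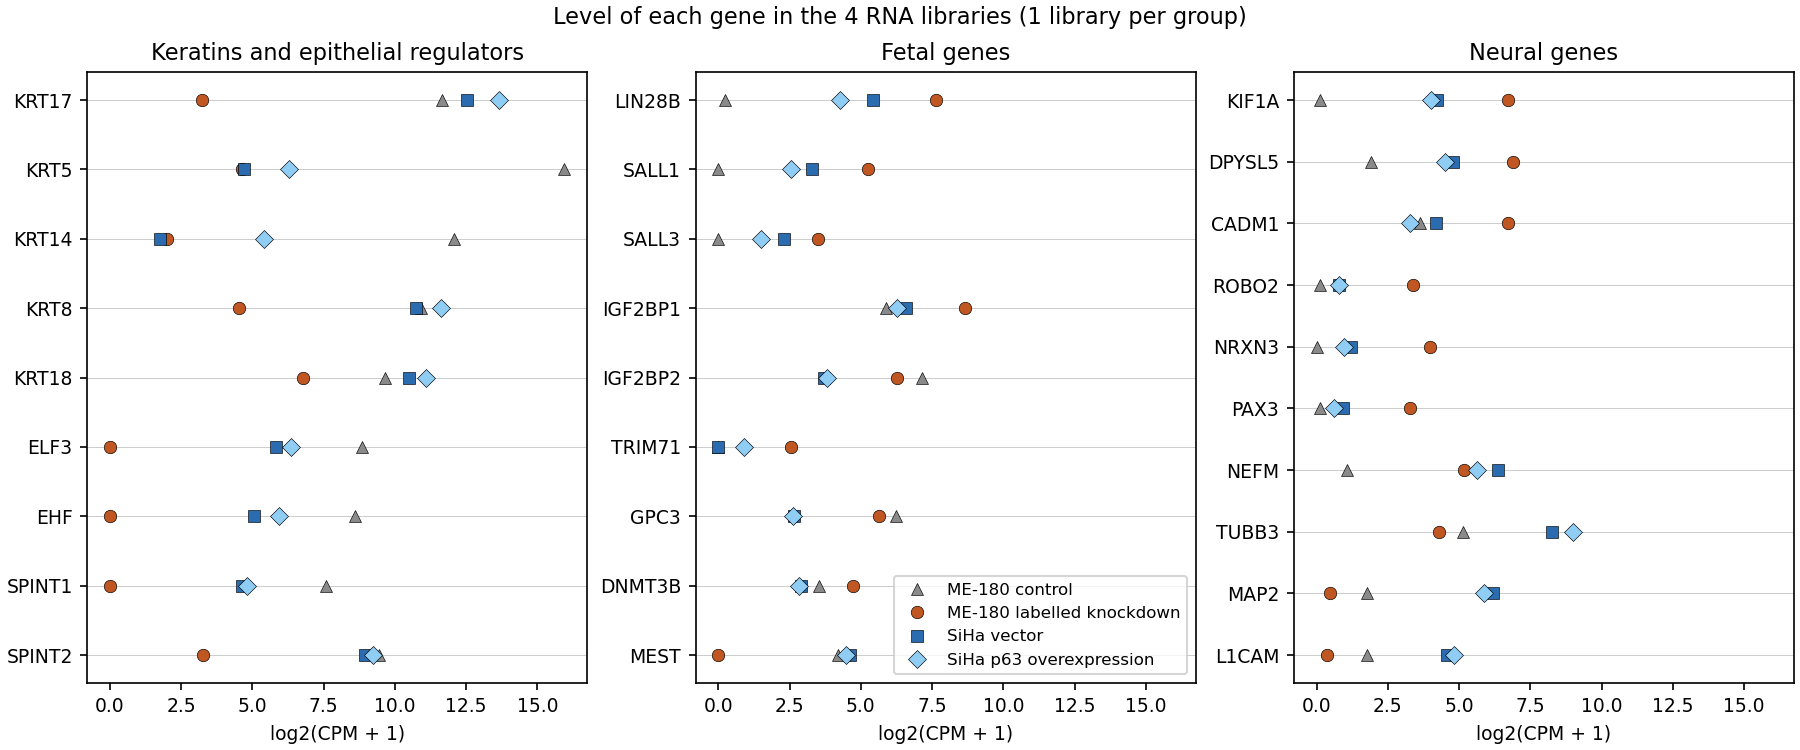
Level of selected genes in the 4 RNA libraries as log2(CPM + 1), 1 point per library. The library labelled knockdown (circles) is far left of both SiHa libraries for KRT17, KRT8 and the regulators ELF3 and EHF, and right of them for LIN28B, SALL1 and KIF1A. KRT5 and KRT14 lie together in the library labelled knockdown and SiHa vector, and TUBB3, MAP2 and L1CAM are higher in SiHa. The TRIM71 points of the ME-180 control and SiHa vector overlap at 0.

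Of the surface and splicing genes of epithelial cells, 6 of 12 were lower and 2 higher (28 listed, median -0.90). SPINT2, a membrane-anchored protease inhibitor, had 87 counts against 4877, 57.1-fold lower (46.2 to 71.4), with 7421 in the ME-180 control. Its relative SPINT1 had 0 counts against 235, 79.8-fold lower with 0 set to 3 counts (lower 95% limit 64.4). MUC1, the surface mucin, had 7 against 413 counts, 60.1-fold lower (28.9 to 150). The ME-180 control had 11 counts of MUC1, so both ME-180 libraries were low for it. All 20 joined MUC1 transcripts were lower, with log2 ratios from -4.66 to -3.14, though a read can count for several of them. PROM2 had 5 against 10 counts, CXADR 304 against 299 and LLGL2 454 against 425. These 3 were below 2-fold.

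The epithelial transcription factors ran in the same direction, with 5 of 6 measured genes lower and 1 higher (22 listed, median -3.43). ELF3 had 0 counts in the library labelled knockdown and 554 in SiHa vector. It was 188-fold lower with 0 set to 3 counts (lower 95% limit 152). EHF, a related ETS factor, had 0 against 315 counts, 107-fold lower in the same way (lower 95% limit 86.5). In the ME-180 control ELF3 and EHF had 4952 and 4191 counts, so of the 4 libraries the one labelled knockdown alone was at 0. MAFF, a small Maf factor, was at -3.19 and TFAP2A, an AP-2 factor, at -1.58. TP73, the p53 family member, was the exception, with 81 against 14 counts (log2 ratio 1.91), and 198 in the ME-180 control.

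Many epithelial genes are repressed by the zinc finger proteins ZEB1 and ZEB2, which bind the E-box motif CACCTG, which reads as CAGGTG on the other strand. ZEB1 had 177 counts in the library labelled knockdown and 71 in SiHa vector, 2.45-fold higher (1.85 to 3.27), against 1 in the ME-180 control and 45 in SiHa overexpression. ZEB2 had 223 against 120 counts, a ratio of 1.82 (1.45 to 2.30), with 1 in the ME-180 control. Both p63-low libraries thus had these transcripts, and the ME-180 control had 1 count of each.

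The motif was searched on both strands in the 250 bases before the gene start, in RefSeq promoters of GRCh38.p14. It was found in 17.5% of all 27305 promoters. Of the 16 epithelial surface, junction and transcription factor genes that were lower, 11 had a promoter sequence and 2 of these held the motif (18.2%), ELF3 and MUC1. Of the 9 that were higher, 7 had a promoter sequence and 3 held it (42.9%), CDS1, DSP and OCLN. The share among lower genes was near that of all promoters. The matches of a pair of lower and a pair of higher genes are shown with the motif in capitals and 30 bases to each side, or up to the start.

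ELF3, lower, chr1:202010437-202010502, plus strand, with the motif beginning 120 bases before the start:
ELF3: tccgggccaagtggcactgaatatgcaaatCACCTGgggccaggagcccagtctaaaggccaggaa
MUC1, lower, chr1:155192955-155193020, minus strand, with the motif beginning 75 bases before the start and another copy just upstream of it:
MUC1: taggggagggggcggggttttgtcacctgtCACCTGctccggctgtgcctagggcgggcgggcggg
DSP, higher, chr6:7541556-7541621, plus strand, with the motif beginning 85 bases before the start and another copy, not shown, at 178 bases:
DSP: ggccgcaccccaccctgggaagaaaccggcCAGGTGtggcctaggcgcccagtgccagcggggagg
OCLN, higher, chr5:69492484-69492546, plus strand, with the motif beginning 33 bases before the start:
OCLN: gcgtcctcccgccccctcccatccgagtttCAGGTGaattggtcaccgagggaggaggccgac

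These letters describe the reference promoters and say nothing of binding in either library.

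Mesenchymal genes were not on one side. Of 16 at the floor (30 listed), 7 were higher and 3 lower, with a median of 0.80. FBN1, fibrillin of extracellular microfibrils, was at 98.3 CPM against 13.2 CPM, 7.43-fold higher (6.18 to 8.99), and COL3A1 at a log2 ratio of 2.17. LOX, which crosslinks collagen, had 187 against 2568 counts, 13.99-fold lower (12.1 to 16.3), and COL5A1 was at -2.15. FN1, fibronectin, had 140 against 87 counts (0.60).

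Fetal genes were mostly higher in the library labelled knockdown. Of 14 at the floor (27 listed), 10 were higher and 1 lower, with a median of 2.02 against 0.17 for all genes. LIN28B had 1981 counts in the library labelled knockdown and 416 in SiHa vector, with 2 in the ME-180 control and 174 in SiHa overexpression. It was 4.67-fold higher than in SiHa vector (4.20 to 5.21). SiHa cells thus had LIN28B transcripts too, at 42.3 CPM, and only the ME-180 control was near 0 among the 4 libraries.

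SALL1 showed the same order. It had 371 counts in the library labelled knockdown and 85 in SiHa vector, 4.28-fold higher (3.38 to 5.49), with 0 in the ME-180 control and 46 in SiHa overexpression. SALL3, its relative, had 102 against 39 counts, with 0 and 17 in these other libraries. IGF2BP1, a fetal RNA-binding protein, was at 401 CPM against 95.5 CPM, 4.20-fold higher (3.91 to 4.52), and was present in the ME-180 control at 58.3 CPM. IGF2BP2 was 6.29-fold higher (5.18 to 7.70), with 139 CPM in the ME-180 control, above the 76.2 CPM of the library labelled knockdown.

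GPC3, an oncofetal cell surface proteoglycan, had 490 against 52 counts, 9.25-fold higher (6.94 to 12.6), with 799 in the ME-180 control. TRIM71, a ubiquitin ligase of stem cells, had 49 counts against 0, 16.03-fold higher with 0 set to 3 counts (lower 95% limit 12.6). It had 0 counts in the ME-180 control but 8 in SiHa overexpression, so SiHa cells did not lack it altogether. DNMT3B, a DNA methyltransferase of the embryo, was at 1.81, NR6A1, an embryonic nuclear receptor, at 2.29 and TRIM6 at 2.33. MEST, an imprinted gene, was the one that was lower, with 0 counts against 229, and 187 in the ME-180 control. It was 77.8-fold lower with 0 set to 3 counts (lower 95% limit 62.7). IGF2 (10 against 20 counts), PLAGL1 and CRABP2 (358 against 183) did not pass 2-fold. IGF2, LIN28B and SALL1 therefore did not share a pattern, although all are called fetal.

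Genes of kidney development, listed because SALL1 acts there, were higher in 5 of 10 and lower in 1 (26 listed, median 0.99). EYA1 had 180 counts in the library labelled knockdown and 29 in SiHa vector, with 0 in the ME-180 control and 11 in SiHa overexpression. The level was 6.09-fold higher than in SiHa vector (4.10 to 9.36). EMX2 was at 2.53, WT1 at 1.71 and PAX2 at 1.23, the last with 42 against 12 counts. PAX8 went the other way, with 1 count against 55, a ratio of 0.0178 (4.4e-04 to 0.104). All of these were low, at 18.0 CPM or less in both libraries.

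The retinoic acid genes were divided evenly, 3 of 9 higher and 3 lower (15 listed, median 0.67). ALDH1A2, an enzyme of retinoic acid synthesis, had 878 against 74 counts, 11.6-fold higher (9.18 to 15.0), and the receptor RARB was 10.97-fold higher (6.67 to 19.2). The related enzyme ALDH1A3 was lower at -2.41 and the epithelial receptor RARG at -2.24. The enzyme and receptor that were higher were thus other family members than those that were lower.

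The neural genes were described in 4 lists. In the synapse, secretory vesicle and ion channel list, 7 of 12 were higher and 0 lower (38 listed, median 1.57). NRXN3, a presynaptic adhesion protein, had 150 counts in the library labelled knockdown and 13 in SiHa vector, with 0 in the ME-180 control and 9 in SiHa overexpression. The level was 11.3-fold higher than in SiHa vector (6.43 to 21.8). Its postsynaptic partner family member NLGN1 had 88 against 6 counts, and SYT1, the calcium sensor of vesicles, 122 against 16. CACNA2D1, a calcium channel subunit, had 166 against 42 counts (1.74), but 205 in SiHa overexpression, above the library labelled knockdown. The list holds 11 further genes with a row that stayed below 1 CPM in both libraries, among them SNAP25 and SYN1.

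In the neural adhesion and guidance list, 9 of 10 were higher and 1 was lower (33 listed, median 1.52). The 10 genes summed to 614 CPM in the ME-180 control, 487 CPM in the library labelled knockdown and 174 CPM in SiHa vector. Among the higher members, UNC5B (535 CPM) and NTRK2 (15.8 CPM) were higher in the control than in the library labelled knockdown (159 and 2.30 CPM). CADM1 (11.4 against 105 CPM) and ROBO2 (0.0930 against 9.49 CPM) were lower in the control. CADM1, an adhesion molecule of synapses and epithelia, had 1047 against 172 counts, 5.98-fold higher (5.08 to 7.06), and ROBO2, a receptor for SLIT guidance cues, 95 against 7, 13.3-fold (6.22 to 34.0). NRCAM was at 1.93 and TENM3 at 1.91. L1CAM, a cell adhesion molecule of neurons that many carcinomas express, was lower, with 3 counts against 226, a ratio of 0.0130 (0.00267 to 0.0386). Neural transcription factors and RNA-binding proteins were higher in 5 of 10 and lower in 0 (38 listed, median 1.03), with PAX3 at 2.34, PAX6 at 1.72 and NOVA1 at 1.68.

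The neuronal cytoskeleton list did not follow, with 4 of 14 higher and 6 lower (31 listed, median 0.23). KIF1A had 1055 counts in the library labelled knockdown and 174 in SiHa vector, 5.95-fold higher (5.07 to 7.03), with 1 in the ME-180 control and 143 in SiHa overexpression. DPYSL5, a collapsin response mediator, was 4.41-fold higher (3.86 to 5.06). Other members were lower. MAP2, a dendrite microtubule protein, had 4 against 702 counts, 179-fold lower (69.5 to 658). TUBB3, neuronal beta tubulin, had 187 against 2996 counts, 16.3-fold lower (14.1 to 19.02). NEFM, a neurofilament, had 353 against 811 counts, 2.34-fold lower (2.06 to 2.66), with 12 in the ME-180 control. The microtubule protein gene MAPT was higher, with 74 against 31 counts (log2 ratio 1.01), and the tubulin genes TUBB2A (0.52) and TUBA1A (0.14) did not pass 2-fold. Members of this list thus lay on both sides. Of 7 neural markers, the 3 with a joined row were KIF1A, NEFM and TUBB3. They summed to 159 CPM in the library labelled knockdown and 405 CPM in SiHa vector. The markers NEFL, INA and SOX2 had no row in either table. ELAVL3, without a joined transcript, had 1 count in the library labelled knockdown and 0 in SiHa vector.

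**Figure D3:**
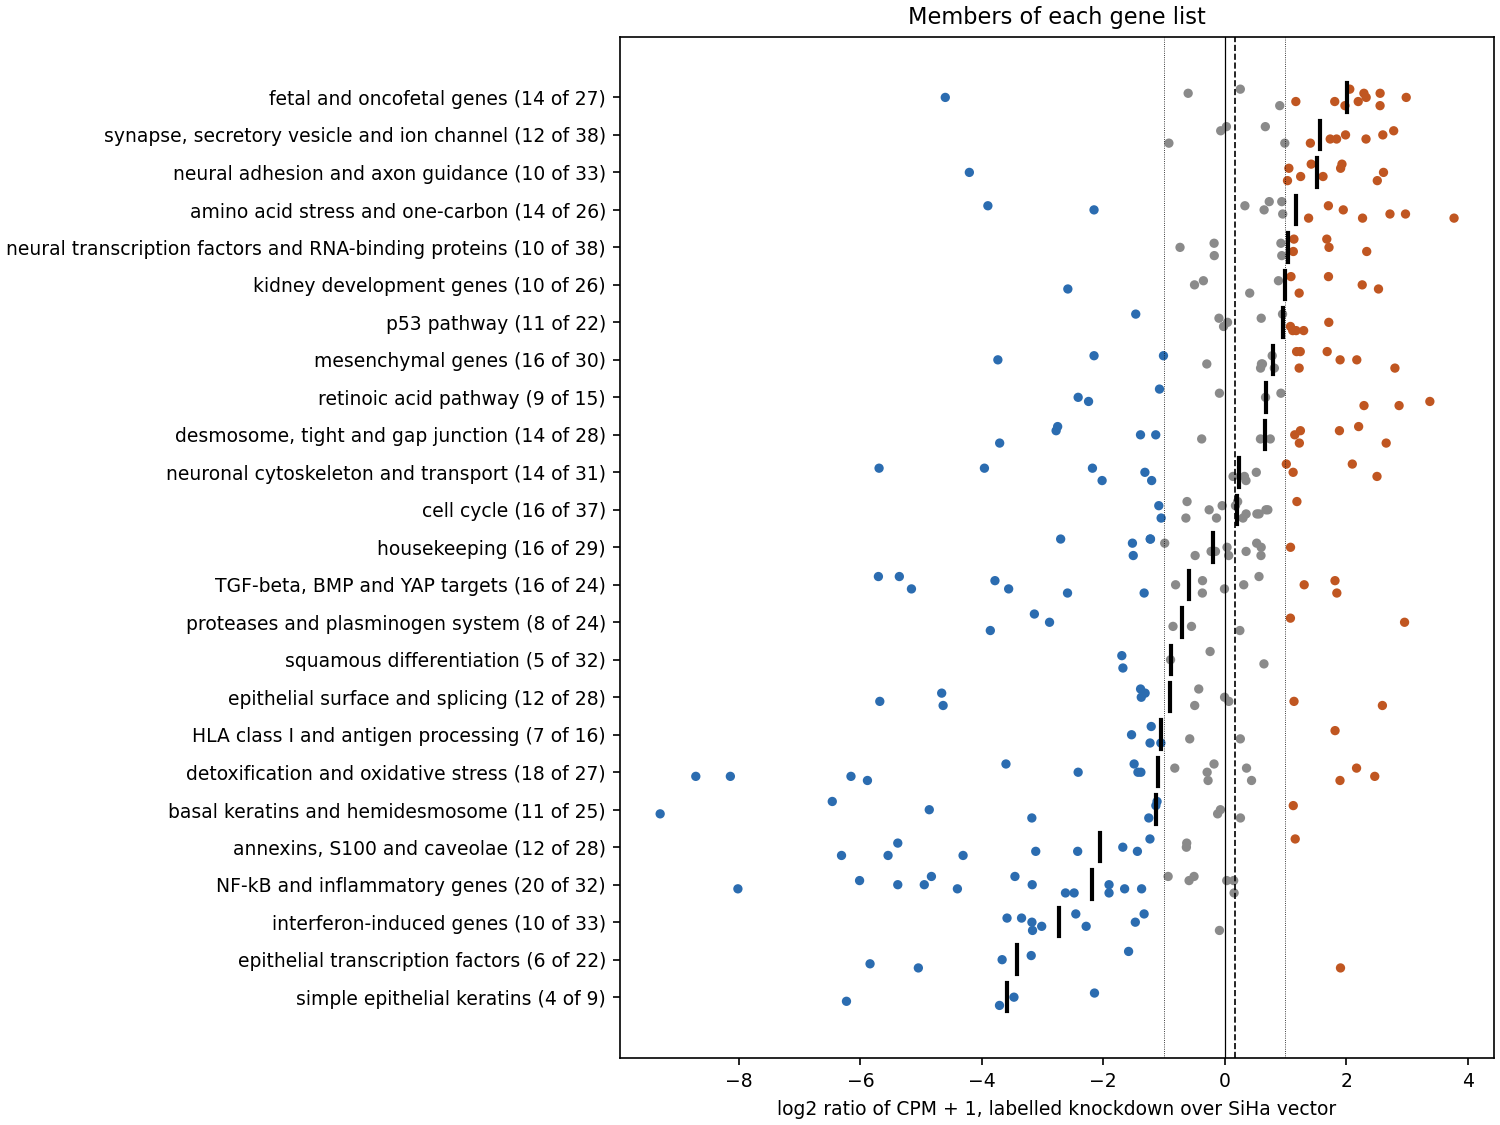
Log2 ratio (x axis) of each member of 25 gene lists that reached 1 CPM, 1 point per gene, orange at 2-fold higher or more, blue at 2-fold lower or more and grey between. Black bars mark list medians, the dashed line the median of all 6289 genes at 0.17, and the numbers beside each name the genes plotted of those listed. Medians run from -3.59 for simple epithelial keratins to 2.02 for fetal genes.

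Inflammatory genes were mostly lower. Of 20 measured genes of the NF-kB and cytokine list (32 listed), 14 were lower and 0 higher, with a median of -2.19. Complement C3 had 178 counts in the library labelled knockdown and 47842 in SiHa vector, 274-fold lower (236 to 319), against 109 in the ME-180 control and 45341 in SiHa overexpression. Both ME-180 libraries were thus low and both SiHa libraries high. ICAM1, a leukocyte adhesion molecule, was 92.3-fold lower (61.4 to 146). IL6, an inflammatory cytokine, had 4 counts in the library labelled knockdown and 415 in SiHa vector, with 0 in the ME-180 control and 33 in SiHa overexpression. The chemokine CXCL8 had 0 against 401 counts, at least 136-fold lower (110), but 2 in SiHa overexpression. With the SiHa overexpression library in place of SiHa vector, the log2 ratio of IL6 was -1.68 instead of -4.95. CXCL8 was then below 1 CPM on both sides, so its difference rests on the SiHa vector library. Other members were also lower in SiHa overexpression than in SiHa vector, among them CXCL1 (18 against 98 counts), PTGS2 (73 against 302) and PTX3 (103 against 344). CXCL3 had 12 counts in the library labelled knockdown, between 46 in SiHa vector and 6 in SiHa overexpression. ICAM1 (2328 against 2085), IL18 (373 against 270) and BIRC3 (111 against 56) were not lower in SiHa overexpression.

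Interferon-induced genes were lower in 9 of 10 (33 listed, median -2.73). OAS2 had 0 against 79 counts, OASL 1 against 120, and IFI6 177 against 1474. IFI27 was unlike these, with 9 against 10 counts. Of the HLA class I and antigen processing genes, 4 of 7 were lower and 1 higher (16 listed, median -1.05). HLA-C had 3539 against 979, 3.55-fold higher (3.31 to 3.81). HLA genes are highly similar and differ between individuals, so the share of reads assigned to each is uncertain.

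In the list of annexins, S100 proteins and caveolar genes, 9 of 12 were lower and 1 was higher (28 listed, median -2.05). LGALS3, galectin 3, had 8 against 1395 counts, 178-fold lower (89.9 to 412), and ANXA1 had 187 against 9021, 49.1-fold lower (42.5 to 57.1). CD44, the hyaluronan receptor, had 1 count in the library labelled knockdown and 442 in SiHa vector, with 1692 in the ME-180 control and 529 in SiHa overexpression. Its 8 joined transcripts gave log2 ratios from -5.44 to -3.53. CAV1, caveolin, was 5.73-fold lower (4.71 to 7.02), and ANXA6 was the exception at 1.16. ANXA8, at -4.31, has near-identical copies.

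In the detoxification list, 9 of 18 were lower and 3 higher (27 listed, median -1.10). NQO1, a quinone reductase, had 62 counts in the library labelled knockdown and 19968 in SiHa vector, with 6852 in the ME-180 control and 19109 in SiHa overexpression. The level was 328-fold lower than in SiHa vector (256 to 428). The aldo-keto reductase AKR1C3 had 0 counts against 4112, at least 1396-fold lower (1135), and 40 in the ME-180 control. Its 2 transcripts gave -8.71 and -6.19, and the AKR1C genes are near-identical, so reads may be shared between them. CYP1B1, a cytochrome P450, was 79.2-fold lower (64.3 to 98.8). Glutathione transferases of the GSTM family were higher, GSTM2 at 2.47, GSTM4 at 2.17 and GSTM1 at 1.90, while GSTM3 had 2457 against 2951 counts (-0.29).

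Of the 15 genes with the lowest ratios among those with at least 100 counts in a library, KRT17, AKR1C3, NQO1 and C3 have been described. ALPP, placental alkaline phosphatase, had 2 counts against 6757, a ratio of 2.9e-04 (3.5e-05 to 0.00105), and 14 in the ME-180 control. ALPP has near-identical paralogs. CYP11A1, the first enzyme of steroid hormone synthesis, had 0 against 1832 counts, and CA9, a hypoxia-induced carbonic anhydrase, 0 against 1601. With 0 set to 3 counts, CYP11A1 and CA9 were 622-fold and 544-fold lower. GSDMD, a pore-forming protein of cell death, had 1 count against 2859, and DECR1, a fatty acid oxidation enzyme, 4 against 2708. These 2 had 831 and 2151 counts in the ME-180 control. SLC16A3, a lactate exporter, had 4 against 3595, and the metalloreductase STEAP4 had 4 against 3993. The remaining genes were LY6K, C11orf86, KLHL35 and AOX1, with 5, 1, 3 and 1 counts in the library labelled knockdown. In SiHa vector these 4 had 2935, 2979, 2211 and 1586 counts, so all 15 genes were abundant in SiHa and at 178 counts or fewer in the other library.

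The 15 genes with the highest ratios were less extreme. SLC44A5, a choline transporter-like gene, had 573 counts against 7, 80.4-fold higher (38.8 to 201). KCTD19 had 201 against 2 (98.7-fold, 27.0 to 820), and DDR2, a collagen receptor kinase, had 403 against 17 (23.3-fold, 14.4 to 40.3). The folate enzyme of mitochondria ALDH1L2 had 2501 counts against 170, with 4 in the ME-180 control and 58 in SiHa overexpression. It was 14.4-fold higher (12.4 to 17.0). AMOT, angiomotin, a regulator of YAP, was the most abundant of the 15, with 8767 against 657 counts, 13.1-fold higher (12.1 to 14.2), and 217 in the ME-180 control. The others were DAAM2 (3.62), OGDHL (3.51), ZSCAN18 (3.49), CYFIP2 (3.49), CXorf57 (3.45), CDHR1 (3.44), SYK (3.42), ATP8A1 (3.41), SCN4A (3.40) and ALDH1A2 (3.38), given as log2 ratios. SYK, a tyrosine kinase, had 1714 counts in the ME-180 control, above the 185 of the library labelled knockdown.

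Genes near 0 in the ME-180 control were followed in the other libraries. There were 101 genes with 3 or fewer counts in the ME-180 control and at least 100 in the library labelled knockdown. In SiHa vector, 0 of the 101 were at 0 counts and 2 were at 3 or fewer, ZSCAN18 and KCTD19. Their SiHa vector level was a median of 17.8% of the level in the library labelled knockdown, with quartiles of 10.997% and 31.3%, and 4 genes were below 5%. In SiHa overexpression the median was 10.9%, with 11 genes below 5%. These genes were chosen through a high count in the library labelled knockdown, so a lower SiHa level is in part set by the choice.

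In the other direction, 45 genes had 3 or fewer counts in the ME-180 control and at least 100 in SiHa vector. The library labelled knockdown had 13 of these below 2% of the SiHa level, 6 of them at 3 or fewer counts. C11orf86 (1 against 2979), VTN, the plasma adhesion protein vitronectin (2 against 1189), and MAOB, monoamine oxidase B (20 against 1471), are examples. The median of the 45 was 86.4%, with quartiles of 1.49% and 194.5%, so the set spread widely and its median describes few of its genes. Genes with at least 100 counts in both libraries, such as LIN28B and KIF1A, are also among the 101, so the sets overlap. The set of 45 was chosen through SiHa. Over all joined genes, 3 of 4407 with at least 100 counts in the library labelled knockdown had 3 or fewer in SiHa vector, against 100 of 4264 the other way round.

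How rows were kept bears on these counts. A transcript at 0 in both libraries of a table is absent from it, so a gene with 0 counts in both SiHa libraries cannot enter the join. Outside the join, 11 transcripts with 3 or fewer counts in the ME-180 control and at least 100 in the library labelled knockdown had a row only in the ME-180 table, against the 101 joined genes. HAND2, a transcription factor of the heart and sympathetic neurons, with 220 counts in the library labelled knockdown, and PCDH9, a protocadherin of neurons, with 227, had no row in the SiHa table. SKIV2L, with 2004 counts in the library labelled knockdown, also had no row in the SiHa table. A missing row does not mean absence of RNA, so these genes have no measured SiHa level. The origin of the low SiHa levels among the 101 joined genes was not tested.

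**Figure D4:**
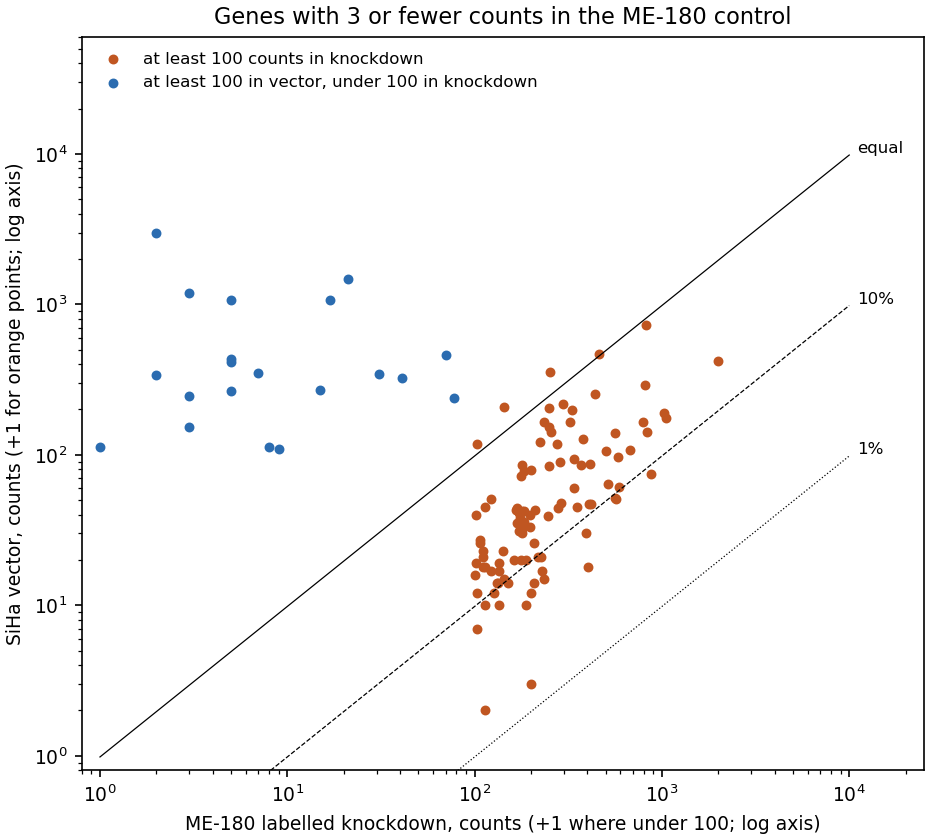
Counts in the library labelled knockdown (x axis) and in SiHa vector (y axis), log axes, for genes with 3 or fewer counts in the ME-180 control. Orange points have at least 100 counts in the library labelled knockdown and blue points at least 100 in SiHa vector but under 100 in the library labelled knockdown; 1 was added to the other library's count so that 0 can be drawn. Solid, dashed and dotted lines mark equal levels, 10% and 1% of the level in the library labelled knockdown. Before 1 was added, 21 of the 101 genes drawn in orange were below 10% of the level in the library labelled knockdown. Blue points reach left to 0 counts in the library labelled knockdown, drawn at 1.

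In the amino acid stress and one-carbon list, 7 of 14 were higher and 2 lower (26 listed, median 1.17). ASNS, asparagine synthetase, had 2441 against 355 counts, 6.75-fold higher (6.04 to 7.57), and CTH, of the transsulfuration pathway, 879 against 101, 8.54-fold (6.95 to 10.6). ATF5, a stress factor, was lower at -3.90. Of the TGF-beta, BMP and YAP target list, 7 of 16 were lower and 3 higher (24 listed, median -0.59), with the growth factor binding protein IGFBP3 at -5.70 and TGFBI at -5.36. Of the proteases, 3 of 8 were lower and 2 higher (24 listed, median -0.70), with PLAT, the tissue plasminogen activator, at 2.96. Of 4 HOX genes with a row, HOXA13 was higher (2.22) and HOXC12 lower (-2.48). Squamous differentiation genes had 2 of 5 lower and 0 higher (32 listed, median -0.89), SERPINB4 and ECM1.

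In the cell cycle list, 1 of 16 was higher and 2 were lower (37 listed, median 0.19), with TOP2A, a replication enzyme, at 0.21. In the housekeeping list, 1 of 16 was higher and 5 were lower (29 listed, median -0.19), among them GAPDH (-1.52) and ACTB (-1.51). RPLP0, a ribosomal stalk protein, was at 0.04. Among genes of the p53 pathway, 5 of 11 were higher and 1 was lower (22 listed, median 0.95), with SESN1 at 1.71 and CDKN1A, the p21 inhibitor, at -0.02.

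Markers of other cell types gave no uniform picture. Of 5 fibroblast markers, 3 had a row and summed to 54.9 CPM in the library labelled knockdown and 36.4 CPM in SiHa vector. In the longer fibroblast list, 3 of 6 were higher and 1 lower (13 listed, median 0.93). The 3 endothelial markers with a row summed to 1.90 CPM and 0.407 CPM, with CDH5 at 0 in the library labelled knockdown and VWF and KDR at 0 in SiHa vector. ENG, endoglin, of the longer endothelial list had 20 against 2541 counts, and that list had 2 of 3 higher (13 listed, median 1.14). The immune markers summed to 3.79 CPM and 142 CPM, the latter nearly all CD14, a receptor for bacterial lipopolysaccharide, with 3 against 1384 counts. CD3E was at 0 against 4 counts and PTPRC had no row in either table. In the longer immune list, 1 of 5 was higher and 2 lower (16 listed, median 0.38). The part of other cells in these results was not tested.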

How the data were processed

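RNA was extracted with TRIzol per the labels' protocols. Per the submitters' processing notes, TopHat, Cufflinks and DESeq2 and build hg19 were used, with no roles or versions. The strand setting is not given in the sources used here. Whole-number counts per RefSeq transcript were deposited in 1 table per cell line. The log2 fold changes, p-values and adjusted p-values in the authors' tables compare other pairs and were not used.

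The ME-180 knockdown and SiHa vector columns were joined on the transcript identifier and scaled to 1000000 counts of the joined rows (CPM). Spreadsheet dates in place of gene names (32 rows in ME-180, 31 in SiHa) were replaced through the transcript identifier. A gene was called at a ratio of at least 2-fold of CPM plus a pseudocount of 1, with at least 1 CPM in a library. List medians and counts cover genes at that floor. Fold values are plain ratios of counts per joined total. A count of 0 was set to 3 counts per library, 0.300 CPM in the library labelled knockdown and 0.305 CPM in SiHa vector. Exact 95% intervals (conditional binomial, scipy 1.17.1) cover counting error only. edgeR 4.0.16 and DESeq2 1.42.0 gave alternative scaling factors. The calling rule and intervals were tested on simulated data.

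Named genes were TP63, LIN28B, SALL1, KIF1A, KRT17 and KRT8, the 15 highest and 15 lowest ratios where a library had 100 counts or more (small RNA genes and unnamed loci left out), and in each list up to 4 members at the floor, those farthest from equal levels. Further list members, the genes of the ME-180-silent sets and the genes without a joined row were named after their values were seen. The comparison, the 29 lists and the named genes were chosen with earlier results of these data known. Transcripts of a gene share reads. Values of some genes that the rule names are not reported here.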

Additional observations from a re-analysis of the deposited data

How the results depend on the processing

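The 2-fold counts depended on the scaling. With the totals of all rows of each table in place of the joined totals, 2156 genes were higher and 602 lower, and the median of all genes moved up by 0.50 on the log2 scale. With TMM scaling the counts were 1064 and 1254, and with the median of ratios 956 and 1203. A pseudocount of 5 CPM left 712 higher and 651 lower genes, and a pseudocount of 0.1 CPM gave 1420 and 1088. With SiHa overexpression in place of SiHa vector, 1434 were higher and 1000 lower. The endothelial list, of 3 genes, turned from a median of 1.14 to -2.19 at a floor of 5 CPM. No gene named by the stated rule and past 2-fold changed sign under any of the 9 alternatives that kept it at the floor. Of the 133 such genes, 120 stayed past it with a pseudocount of 5 CPM. List medians were also taken with all counts below 3 set to 3 and no pseudocount. The median was then -4.54 for simple epithelial keratins, -4.61 for epithelial transcription factors, 2.09 for fetal genes and 1.90 for the synapse list. Genes of a few counts, such as KCTD19 and ALPP, have wide intervals because depth limits them. No paired analysis was possible because each group has 1 library. Leaving out the library labelled knockdown leaves no comparison.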
